A study of Mus musculus with 6 samples.

Results

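The 42 genes described here build and run the mitotic spindle: the cyclins and kinases that start mitosis, the spindle checkpoint, the kinetochore, the mitotic kinesins and the machinery of cytokinesis. They were taken as a list of gene symbols, and all 42 matched 1 row each among the 39179 gene rows of the count tables. All 42 also passed the filter on low counts that left 16691 genes for testing, with at least 601 reads of each in every library. The study profiled RNA of whole retinas from newborn mice at postnatal day 0.5, with 3 libraries from controls of genotype Lhx2 lox/lox and 3 libraries from conditional knockouts (cKO) of genotype Lhx2 lox/lox; Pdgfrα-Cre. Both groups were on a mixed, mainly CD-1 background and both carried the floxed Lhx2 alleles, so that the groups differ by the Cre transgene, and no Cre carrier with an intact Lhx2 gene is among the samples used here. The controls are named wild type in the series design. Lhx2 encodes a LIM homeodomain protein that progenitors of the eye and forebrain need, and the series asks about its part in the development of Müller glia, the last cell type that retinal progenitors form. The labels do not say which retinal cells had expressed Cre.

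In the newborn mouse retina the dividing cells are progenitors, which enter mitosis at the ventricular surface and give rise to rods, bipolar cells, late amacrine cells and Müller glia. Transcripts of mitotic genes build up in the G2 phase, are translated for the division and are cleared in G1, so postmitotic neurons hold little of them. Many of these genes are held off in resting cells and switched on in G2 through promoters read by the transcription factors NF-Y, B-Myb and FOXM1. A whole retina mixes dividing and postmitotic cells, and in these bulk samples fewer dividing cells and less mitotic RNA per cell cannot be told apart.

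Reads counted on genes came to 31483170 to 66947478 per library. There were sets of libraries that cross genotype, recognised by the share of deposited counts that was ambiguous between genes: 3.13 to 3.20% in control 2, cKO 1 and cKO 2 (set A) and 2.63 to 2.69% in set B (controls 3 and 4 with cKO 3). The labels name no such batch. With genotype in the model 10637 of the tested genes differed between the sets, and mitochondrial genes held 1.15 to 1.79% of the gene counts of set A libraries against 7.14 to 9.55% for set B. Controls 2 and 4 were male by their Y-linked transcripts, whereas control 3 and all 3 cKO libraries were female. Levels are given as CPM, a gene's reads relative to the TMM-scaled reads of its library. Lhx2 itself, on the plus strand of GRCm38 chromosome 2 from 38339281 to 38369733, had 398, 266 and 258 CPM in controls 2, 3 and 4, against 252, 287 and 224 CPM for cKO 1, 2 and 3 (log2 fold change -0.40, SE 0.10, adjusted p = 0.0338). The sources used here do not say which exons the floxed alleles remove, so counts over the whole gene are a limited check of the deletion. The labels do not say that each library came from a separate animal, and p-values measure the spread between these libraries. Below, values are given in that order of libraries. Differences are log2 fold changes, cKO over control, from edgeR's quasi-likelihood test with library set as a term, and a gene is said to have fallen or risen where the Benjamini-Hochberg adjusted p over all tested genes was under 0.05.

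Mitotic genes were lower in the cKO retinas almost throughout. Of the 42 genes 39 fell, 0 rose and 3 did not pass, against 5.63% of all tested genes that fell and 6.36% that rose. The median log2 fold change of the group was -0.55, that of all tested genes was 0.00, and single genes ranged from -0.87 for Spc25 to -0.07 for Pttg1, with standard errors of 0.08 to 0.17. The 3 that did not pass were Pttg1, Cit and Mki67. DESeq2 with the same terms called 41 of the 42 lower, beside 1672 lower (10%) and 1204 higher (7.21%) genes over the whole table, where edgeR called 939 lower and 1062 higher. Summed over the 42 genes, mitotic transcripts took 6143, 8507 and 8109 CPM in the controls and 3452, 4365 and 5912 CPM in the cKO libraries, so that all 3 cKO sums lay below all 3 control sums. These sums are not adjusted for library set, and the closest values, 6143 in control 2 and 5912 in cKO 3, are of different sets. Mki67 and Top2a together made up 1649 to 2664 CPM of the control sums. Markers of retinal progenitors, a list chosen with earlier results of these data known, were lower too. The sum of 7 such markers was 4365 to 5004 CPM in controls and 2163 to 2709 CPM in cKO. Most of that sum was Ccnd1, cyclin D1, at 3868, 3593 and 3395 CPM in the controls against 1600, 2123 and 1933 CPM in the cKO libraries. The part of the progenitor change in the fall of the mitosis genes was not tested.

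**Figure D1:**
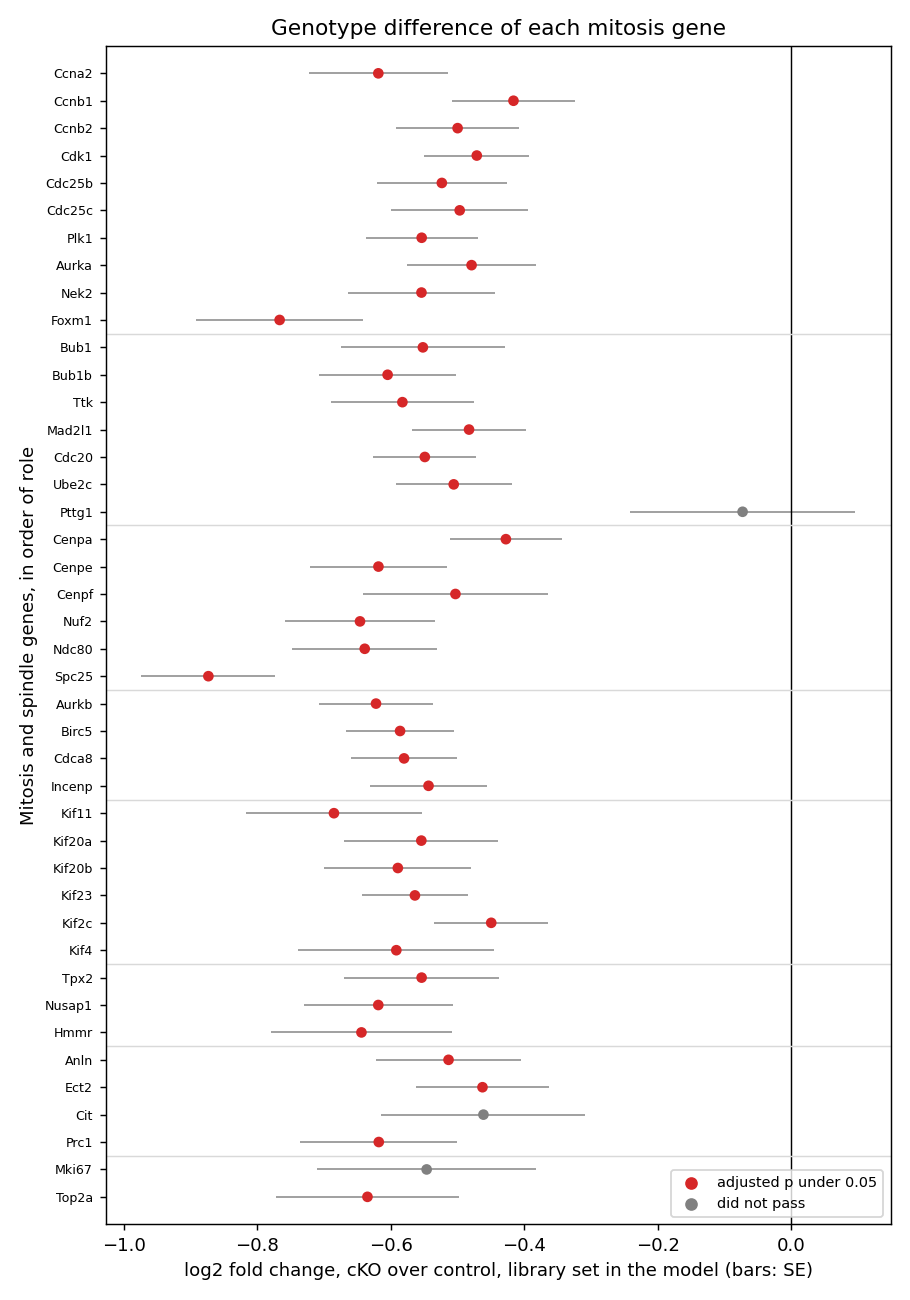
Log2 fold change (cKO over control, library set in the model) of each of the 42 genes, in order of role from mitotic entry at the top to chromosome structure at the bottom; bars are standard errors, red points have an adjusted p under 0.05 and grey points did not pass. All points lie below 0, Spc25 is lowest at -0.87, and Pttg1 at -0.07 is the only one whose bar crosses 0.

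The calls rest on the library set term and on few libraries. Without the term 0 of the 42 genes passed (0% of all tested genes fell and 0.216% rose), adjusted p ran from 0.409 to 0.952 and 25 of the 42 were lower at an unadjusted p under 0.05, against 2.76% of all tested genes. With sex as a further term 0 of 42 passed (0.377% of all tested genes fell and 1.04% rose), with adjusted p of 0.0522 to 0.890 and 35 lower at an unadjusted p under 0.05 (7.26% of all tested genes). In that fit the median log2 fold change was -0.54 and all 42 estimates were negative, beside 8249 of the 16691 tested genes. The count was 4 without control 2 (0.991% of all tested genes fell and 3.26% rose), the only control of set A, and 6 without cKO 3 (0.78% fell and 1.02% rose), the only cKO of set B. Sex differs between the groups. Control 3 and cKO 3 are both female and both in set B, and between them the log2 ratios (cKO over control) of the 42 genes were -0.73 to -0.31, with a median of -0.51. These are single libraries, and the part of genotype in the ratios between them was not tested. Between cKO 2 and cKO 1, which share genotype, set and sex, all 42 genes also differed in 1 direction, by a median of 0.28. Between controls 3 and 4, which share genotype and set and differ in sex, the median log2 ratio of the 42 genes was -0.06 (male over female), within a range of -0.27 to 0.28. The part of sex in the fall of the mitosis genes was not tested beyond the fit with sex as a term.

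Promoter sequences are shown as a description of the gene list. A link between the motifs and the fall in the cKO libraries was not tested. RefSeq promoter windows on GRCm38.p6 were found for 35 of the 42 genes, and the 250 bases before the start were searched on both strands for CCAAT, the letters bound by NF-Y, and for TTTGAA and TTCGAA, forms of the cell cycle homology region that recruits the B-Myb and FOXM1 complexes. TTCGAA reads the same on both strands, the last base of a CCAAT can also be the first of a TTTGAA, and every match was counted. CCAAT was present in 25 of the 35 genes (71.4%), against 39.8% of the 11929 tested genes that have a window and 33.85% of all windows of the same length. At least 2 copies of CCAAT were present in 17 of the 35 (48.6%), against 14.4% of the tested genes. TTTGAA or TTCGAA was present in 11 (31.4%), against 14.2% of the tested genes and 17.15% of all windows, and 10 of these 11 also held CCAAT. Of 61 CCAAT matches 50 lay within 150 bases before the start. Ect2 and Prc1 have overlapping windows, and a site in both windows was counted at each start. A match is a description of letters and not of a bound site. The last 150 bases before the start are given for 7 genes, 5′ to 3′ on the gene's strand, chosen for the motifs they hold or, for Birc5, for holding none, and only where no annotated exon lies in the stretch. Capitals mark CCAAT and TTTGAA or TTCGAA on either strand, so ATTGG and TTCAAA are the same motifs read from the other strand.
Top2a (chr11:99024190-99024339, minus strand): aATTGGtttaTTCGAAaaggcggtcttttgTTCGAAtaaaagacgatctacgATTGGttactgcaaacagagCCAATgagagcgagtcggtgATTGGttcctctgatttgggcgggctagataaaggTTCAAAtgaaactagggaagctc
Mki67 (chr7:135716380-135716529, minus strand): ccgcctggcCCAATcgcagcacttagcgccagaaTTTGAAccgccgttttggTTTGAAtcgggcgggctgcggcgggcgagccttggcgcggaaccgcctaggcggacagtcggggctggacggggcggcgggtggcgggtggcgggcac
Hmmr (chr11:40733438-40733587, minus strand): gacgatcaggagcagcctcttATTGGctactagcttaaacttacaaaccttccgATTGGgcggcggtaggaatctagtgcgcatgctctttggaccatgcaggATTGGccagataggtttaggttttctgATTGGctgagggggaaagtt
Kif11 (chr19:37376232-37376381, plus strand): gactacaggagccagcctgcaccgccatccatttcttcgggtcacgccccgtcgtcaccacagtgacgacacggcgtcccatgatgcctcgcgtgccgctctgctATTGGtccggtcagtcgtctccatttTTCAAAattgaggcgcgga
Spc25 (chr2:69206214-69206363, minus strand): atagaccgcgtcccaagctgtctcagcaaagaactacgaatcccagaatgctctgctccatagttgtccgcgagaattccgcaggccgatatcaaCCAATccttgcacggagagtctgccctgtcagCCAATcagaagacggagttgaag
Ccnb2 (chr9:70421555-70421704, minus strand): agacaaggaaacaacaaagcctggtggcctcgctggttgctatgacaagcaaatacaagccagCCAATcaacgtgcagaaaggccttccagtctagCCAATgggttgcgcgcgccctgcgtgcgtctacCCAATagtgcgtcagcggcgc
Birc5 (chr11:117849087-117849236, plus strand): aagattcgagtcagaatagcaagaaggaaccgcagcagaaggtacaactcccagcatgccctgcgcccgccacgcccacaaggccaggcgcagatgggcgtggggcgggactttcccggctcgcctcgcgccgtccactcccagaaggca
In Top2a and Kif11 a TTCAAA begins 23 and 19 bases before the start. Hmmr holds CCAAT 4 times in these bases, all on the other strand, and Ccnb2 holds it 3 times on the gene's own strand. Spc25, whose fall was the deepest of the 42, holds 2 copies of CCAAT and neither form of the other motif in this stretch. Birc5 fell too (log2 fold change -0.59, SE 0.08, adjusted p = 0.00339) and holds none of these letters here. Bases after the start were not searched in any gene, so motifs there would be missed. Mki67, which did not pass the test, holds CCAAT and 2 copies of TTTGAA.

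All 10 regulators of mitotic entry fell, with log2 fold changes of -0.77 to -0.42 and a median of -0.51. Ccna2, cyclin A2, which works in S phase and early mitosis and is among the genes most highly expressed per length here, was counted at 286, 432 and 431 CPM in the controls against 155, 198 and 296 CPM in the cKO libraries. Ccnb1 (ENSMUSG00000041431; GRCm38 chromosome 13, 100778650 to 100786570, minus strand), the B-type cyclin whose rise and destruction frame mitosis, stood at 136, 95.2 and 101 CPM in the controls against 89.5, 106 and 76.7 CPM in the cKO libraries. Its fall was the smallest of this role (log2 fold change -0.42, SE 0.09, adjusted p = 0.0223), and cKO 2 lay above controls 3 and 4. Ccnb2, the second mitotic B-type cyclin, was at 75.5, 60.9 and 61.6 CPM in the controls against 46.6, 51.2 and 47.4 CPM in the cKO libraries, and Cdk1, the kinase that these cyclins switch on, at 146, 131 and 124 CPM in the controls against 101, 108 and 92.6 CPM in the cKO libraries. In both genes every cKO library lay below every control. Cdc25b, a phosphatase that frees Cdk1 of its inhibitory phosphates, was at 157, 127 and 146 CPM in the controls against 95.1, 108 and 102 CPM in the cKO libraries. Cdc25c, its relative with the same action at mitotic onset, was at 30.4, 27.0 and 26.4 CPM in the controls against 19.1, 20.8 and 20.4 CPM in the cKO libraries. Again no cKO library reached any control in either gene.

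Among the kinases, Plk1 (ENSMUSG00000030867; GRCm38 chromosome 7, 122159439 to 122169873, plus strand), which acts from centrosome maturation to cytokinesis, was at 66.3, 106 and 109 CPM in the controls against 41.5, 46.5 and 75.0 CPM in the cKO libraries. Its fall had the smallest p of the entry genes (log2 fold change -0.55, SE 0.08, adjusted p = 0.00514), with a log2 ratio of -0.59 within set A and -0.51 within set B; cKO 3 lay above control 2, so the groups overlap across sets and separate within them. Aurka, the kinase of centrosomes and spindle poles, was at 38.1, 43.6 and 40 CPM in the controls against 24.3, 26.8 and 32.2 CPM in the cKO libraries. Nek2, a kinase that splits the centrosomes, was at 122, 98.7 and 112 CPM in the controls against 68.5, 83.3 and 78.7 CPM in the cKO libraries. The groups did not overlap in Aurka and Nek2. Foxm1, the forkhead factor that drives transcription of many of the other genes described here, was at 229, 142 and 134 CPM in the controls against 105, 144 and 87.9 CPM in the cKO libraries. The fall of Foxm1 was the largest of the role (log2 fold change -0.77, SE 0.12, adjusted p = 0.00678), and the log2 ratio was -0.88 within set A and -0.65 within set B; control 2 was the highest library and cKO 2 lay above controls 3 and 4.

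Of 7 genes of the spindle checkpoint and the anaphase-promoting complex 6 fell, with a median log2 fold change of -0.55 over the 7. The checkpoint holds back anaphase until every chromosome is attached, and the anaphase-promoting complex then marks securin and cyclin B for destruction. Bub1, a checkpoint kinase of the kinetochore, was at 81.6, 81.3 and 69.5 CPM in the controls against 45.03, 58.6 and 55.3 CPM in the cKO libraries. Bub1b, which encodes the checkpoint protein BubR1, was at 141, 171 and 177 CPM in the controls against 77.7, 97.6 and 121 CPM in the cKO libraries. Ttk, the kinase also called Mps1 that starts the signal, was at 44.3, 57.1 and 58.6 CPM in the controls against 24.2, 29.0 and 43.0 CPM in the cKO libraries. Mad2l1, the protein that sequesters Cdc20, was at 105, 118 and 109 CPM in the controls against 68.2, 73.6 and 86.4 CPM in the cKO libraries. All 4 checkpoint genes had every cKO library below every control. Cdc20 (ENSMUSG00000006398; GRCm38 chromosome 4, 118432901 to 118437352, minus strand), the activator of the anaphase-promoting complex, was at 165, 65.9 and 68.9 CPM in the controls against 109.6, 109.6 and 47.5 CPM in the cKO libraries. Its fall had the smallest p of this role (log2 fold change -0.55, SE 0.08, adjusted p = 0.00364), although both set A cKO libraries lay above both set B controls; the log2 ratio was -0.59 within set A and -0.50 within set B. Ube2c, the ubiquitin-conjugating enzyme of the complex, was at 121, 83.3 and 85.6 CPM in the controls against 76.1, 82.3 and 64.4 CPM in the cKO libraries, with all cKO libraries below all controls. For Ube2c, 22.8% of its exon bases overlap Tnnc2 on the other strand, and the labels do not say whether counting used strand.

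Pttg1 (ENSMUSG00000020415; GRCm38 chromosome 11, 43420250 to 43426251, minus strand) encodes securin, which keeps the cohesin-cutting protease separase inactive until anaphase. It was the exception of the group and did not pass (log2 fold change -0.07, SE 0.17, adjusted p = 0.831). Its levels were 44.6, 41.4 and 47.1 CPM in the controls against 55.4, 56.3 and 31.5 CPM in the cKO libraries, so cKO 1 and cKO 2 were the highest libraries and cKO 3 was the lowest. The log2 ratio was 0.32 within set A and -0.49 within set B. The interaction of library set and genotype had an unadjusted p of 0.00254 and an adjusted p of 0.672 in edgeR, and Pttg1 was the only one of the 42 genes with an unadjusted interaction p under 0.05, against 4.22% of all tested genes. No gene of the group passed the interaction test after adjustment (0.024% of all tested genes did).

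All 6 genes of the kinetochore and centromere fell, with a median log2 fold change of -0.63. Spc25 (ENSMUSG00000005233; GRCm38 chromosome 2, 69193895 to 69206194, minus strand), a subunit of the Ndc80 complex that grips microtubules, was at 157, 108 and 131 CPM in the controls against 79.5, 88.7 and 66.4 CPM in the cKO libraries. This was the deepest fall and the smallest p of all 42 genes (log2 fold change -0.87, SE 0.10, adjusted p = 0.00155). Means were 132 ± 24.6 CPM over the controls against 78.2 ± 11.2 CPM over the cKO libraries (SD, n = 3 each), no cKO library reached any control, and the log2 ratio was -0.90 within set A and -0.85 within set B. Its partners Ndc80, which touches the microtubule directly, at 57.2, 77.7 and 67.4 CPM in the controls against 31.5, 38.5 and 49.0 CPM in the cKO libraries, and Nuf2, its dimerization partner, at 87.0, 136 and 134 CPM in the controls against 44.6, 57.8 and 93.4 CPM in the cKO libraries, fell by 0.64 and 0.65 on the log2 scale. Spc25 was also the only gene called both without control 2 and without cKO 3 (edgeR, adjusted p = 0.021 in each).

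Cenpa, the histone H3 variant that marks centromeres, was at 94.2, 38.6 and 40.1 CPM in the controls against 65.7, 66.1 and 31.3 CPM in the cKO libraries. The set A cKO libraries lay above the set B controls, and the log2 ratio was -0.52 within set A and -0.33 within set B. Cenpe, the kinesin that carries chromosomes to the spindle equator, was at 84.2, 296 and 283 CPM in the controls against 46.3, 58.2 and 198 CPM in the cKO libraries. Cenpf (ENSMUSG00000026605; GRCm38 chromosome 1, 189640606 to 189688086, minus strand), a large protein of the outer kinetochore and nuclear matrix, was at 183, 476 and 467 CPM in the controls against 94.5, 135 and 375 CPM in the cKO libraries. In both genes cKO 3 stood above control 2, and set B libraries of a genotype read higher than its set A libraries. Cenpf had the largest p of the role (log2 fold change -0.50, SE 0.14, adjusted p = 0.0474) and lost its call under more alternatives than the other 5.

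The 4 genes of the chromosomal passenger complex, which corrects faulty attachments and later guides cytokinesis, all fell, within a narrow range of log2 fold changes from -0.62 to -0.54. Aurkb, its kinase, was at 116, 65.3 and 61.5 CPM in the controls against 68.9, 77.04 and 42.4 CPM in the cKO libraries, with the set A cKO libraries above the set B controls. Birc5, survivin, which anchors the complex at centromeres, was at 126, 120.1 and 109.8 CPM in the controls against 86.0, 87.5 and 74.2 CPM in the cKO libraries. Cdca8 (ENSMUSG00000028873; GRCm38 chromosome 4, 124918465 to 124939311, minus strand), borealin, was at 165, 145 and 143 CPM in the controls against 101, 111 and 100.1 CPM in the cKO libraries and had the smallest p of the complex (log2 fold change -0.58, SE 0.08, adjusted p = 0.00334). Birc5 and Cdca8 had every cKO library below every control. Incenp (ENSMUSG00000024660; GRCm38 chromosome 19, 9872296 to 9899551, minus strand), the scaffold, was at 117, 286 and 308 CPM in the controls against 81.9, 90.2 and 190.0 CPM in the cKO libraries, with the largest p of the complex (log2 fold change -0.54, SE 0.09, adjusted p = 0.00662). Here the sets differed more than the genotypes, and cKO 3 lay above control 2.

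All 6 kinesins fell, with log2 fold changes of -0.69 to -0.45 and a median of -0.58. Kif11, known as Eg5, which pushes the spindle poles apart, was at 148, 223 and 185 CPM in the controls against 73.4, 99.9 and 135 CPM in the cKO libraries. Kif20a, which brings Plk1 and Aurora B to the midzone, was at 57.7, 66.9 and 63.9 CPM in the controls against 32.9, 43.6 and 45.8 CPM in the cKO libraries; 29.3% of its exon bases overlap Cdc23 on the other strand. The groups did not overlap in Kif11 and Kif20a. Kif20b, a kinesin of late cytokinesis, was at 37.4, 169 and 141 CPM in the controls against 22.3, 27.2 and 103 CPM in the cKO libraries. It had the widest gap between the library sets of all 42 genes, 2.06 on the log2 scale lower in set A, and nearly equal genotype ratios in both (-0.60 within set A and -0.58 within set B). Kif23 (ENSMUSG00000032254; GRCm38 chromosome 9, 61915905 to 61946774, minus strand), the motor of the centralspindlin complex, was at 121, 204 and 200.4 CPM in the controls against 83.7, 88.1 and 130.2 CPM in the cKO libraries. Its p was the smallest of the kinesins (log2 fold change -0.56, SE 0.08, adjusted p = 0.00363). Kif2c, which depolymerizes microtubules at centromeres, was at 43.7, 81.3 and 73.9 CPM in the controls against 30.7, 33.2 and 56.9 CPM in the cKO libraries. Kif4 (ENSMUSG00000034311; GRCm38 chromosome X, 100625737 to 100727214, plus strand), the chromokinesin that the X chromosome encodes, was at 103, 105 and 103 CPM in the controls against 49.2, 72.5 and 77.5 CPM in the cKO libraries, with the largest p of the kinesins (log2 fold change -0.59, SE 0.15, adjusted p = 0.033). Its controls, of which 1 was female and 2 were male, lay close together, and all cKO libraries were lower. Of its exon bases 15.1% overlap Pdzd11 on the other strand, and Kif4, like Ccnb1 and Ccnb2, has a named pseudogene whose reads the counting could split from it.

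Of the 3 spindle assembly factors all fell. Tpx2, which activates Aurora A and nucleates microtubules near chromosomes, was at 224, 334 and 319 CPM in the controls against 119, 152 and 249.5 CPM in the cKO libraries. Nusap1 (ENSMUSG00000027306; GRCm38 chromosome 2, 119618298 to 119651244, plus strand), which bundles microtubules around chromosomes, was at 181, 218 and 195 CPM in the controls against 98.6, 128 and 140.1 CPM in the cKO libraries. The groups did not overlap in Nusap1, which had the smallest p of the 3 (log2 fold change -0.62, SE 0.11, adjusted p = 0.00989). Hmmr (ENSMUSG00000020330; GRCm38 chromosome 11, 40701395 to 40733422, minus strand), a microtubule-binding protein of spindle poles, was at 53.4, 92.9 and 77.9 CPM in the controls against 27.2, 37.6 and 57.6 CPM in the cKO libraries and had the largest p (log2 fold change -0.64, SE 0.14, adjusted p = 0.0175).

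Of 4 cytokinesis genes 3 fell. Prc1 (ENSMUSG00000038943; GRCm38 chromosome 7, 80294450 to 80316259, plus strand), which cross-links the antiparallel microtubules of the midzone, was at 179, 440.0 and 400.3 CPM in the controls against 96.0, 129 and 283 CPM in the cKO libraries (log2 fold change -0.62, SE 0.12, adjusted p = 0.0118). Anln, anillin, the scaffold of the contractile ring, was at 44.4, 83.6 and 73.2 CPM in the controls against 26.4, 32.3 and 58.1 CPM in the cKO libraries. Ect2, the exchange factor that activates RhoA at the cleavage plane, was at 87.2, 121 and 112 CPM in the controls against 54.2, 66.0 and 89.0 CPM in the cKO libraries. In these 3 genes cKO 3 lay above control 2, and the genotypes separated only within the sets. Cit (ENSMUSG00000029516; GRCm38 chromosome 5, 115845278 to 116008947, plus strand), citron kinase of the midbody ring, was at 39.3, 75.7 and 64.8 CPM in the controls against 20.5, 29.7 and 57.9 CPM in the cKO libraries and did not pass (log2 fold change -0.46, SE 0.15, adjusted p = 0.0888). The log2 ratio was -0.65 within set A and -0.28 within set B. Per length it was the lowest of the 42 genes in controls, at 3.65 ± 1.14 CPM per kilobase of merged exons (SD, n = 3).

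Mki67 and Top2a, of chromosome structure, were the most abundant. Mki67 (ENSMUSG00000031004; GRCm38 chromosome 7, 135689784 to 135716361, minus strand), the coat protein that keeps mitotic chromosomes apart and the usual marker of dividing cells, was at 727, 1549 and 1459.7 CPM in the controls against 349, 555 and 1134 CPM in the cKO libraries. Its difference did not pass (log2 fold change -0.55, SE 0.16, adjusted p = 0.0644). Its log2 ratio was -0.68 within set A and -0.41 within set B. Top2a (ENSMUSG00000020914; GRCm38 chromosome 11, 98992943 to 99024189, minus strand), the topoisomerase that untangles sister DNA, was at 923, 1115 and 996 CPM in the controls against 466, 661 and 717 CPM in the cKO libraries, fell (log2 fold change -0.63, SE 0.14, adjusted p = 0.0196) and had every cKO library below every control. Per kilobase of merged exons, levels in controls were 124 ± 44.8 CPM for Mki67, 112 ± 10.8 for Top2a and 93.8 ± 20.5 for Ccna2 (SD, n = 3). The neighbours in this order differ by less than the larger of their SDs, and the group's next gene, Tpx2, was at 62.4 ± 12.7. The median of the 42 genes was 25.2 CPM per kilobase.

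**Figure D2:**
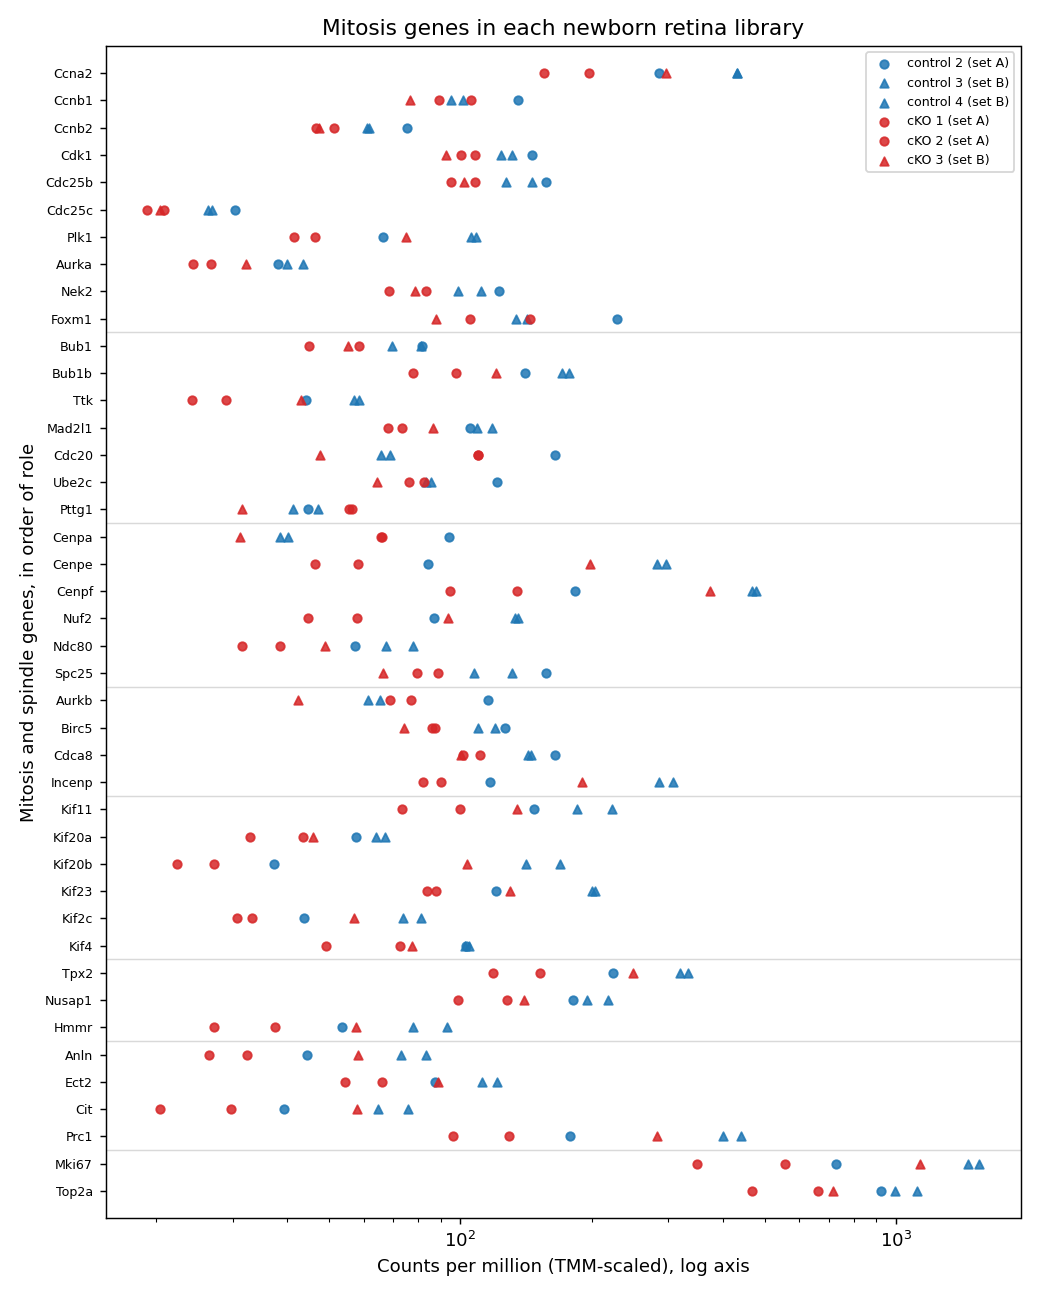
CPM (TMM-scaled, log axis) of the 42 genes in each library, in order of role; blue is control, red is cKO, circles are set A (control 2, cKO 1 and 2) and triangles are set B (controls 3 and 4, cKO 3). Red circles lie left of the blue circle and red triangles left of the blue triangles in 41 of 42 genes, while 20 of 42 genes separate the genotypes over all 6 libraries.

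Across all 6 libraries, 20 of the 42 genes had every cKO value below every control value and 0 had every cKO value above, against 5.54% and 8.38% of all tested genes. Compared within the library sets, 41 of the 42 did so in both sets, against 23.8% of all tested genes; the exception was Pttg1. No control library was the lowest for any of the 42 genes: the lowest value was in cKO 1 for 31 genes and in cKO 3 for 11. The highest was in control 3 for 22 genes, control 2 for 15, control 4 for 4 and cKO 2 for 1, Pttg1. These counts of lowest and highest libraries were not made over all tested genes and take no account of library set. The median log2 ratio of the 42 genes was -0.64 within set A and -0.50 within set B, against -0.001 and -0.005 for all tested genes. Set A holds 1 control and set B 1 cKO library, and 0 of the 42 genes passed the interaction test after adjustment.

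**Figure D3:**
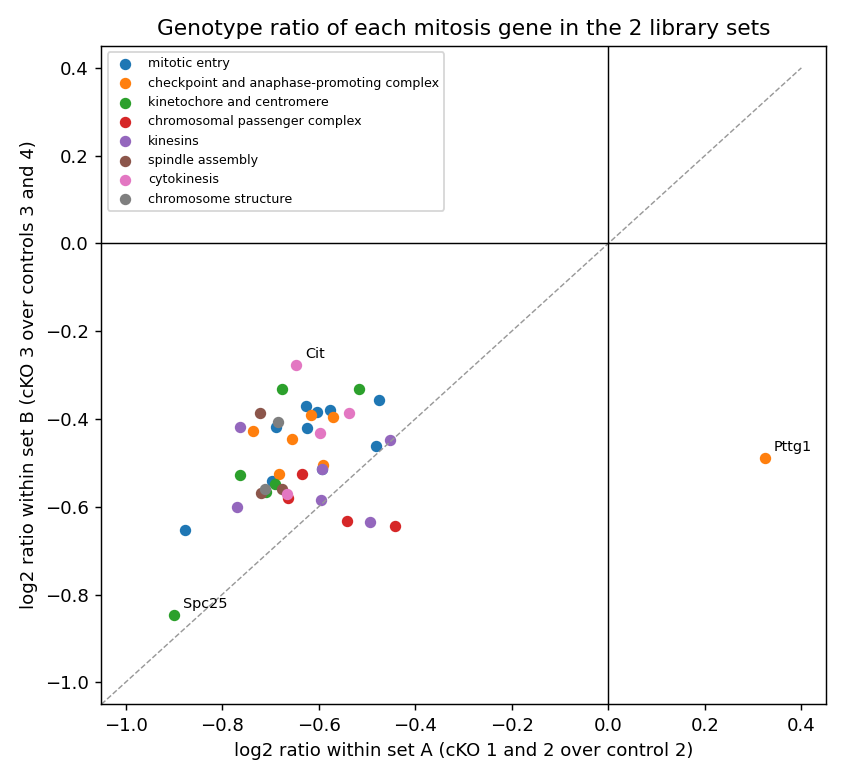
Log2 ratio of each of the 42 genes within set A (cKO 1 and 2 over control 2, x axis) against that within set B (cKO 3 over controls 3 and 4, y axis), coloured by role, with the line of equal ratios dashed. The genes form 1 cloud in the lower left, Spc25 is at its lower end (-0.90 within set A and -0.85 within set B), Cit is the shallowest in set B, and Pttg1 stands alone at the right with a positive ratio in set A.

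The cKO libraries of set A also differed from each other. All 42 genes were higher in cKO 2, by at most 0.67 on the log2 scale, whereas 49.4% of all tested genes were lower in cKO 2. Against control 2, the median log2 ratio was -0.78 in cKO 1 and -0.51 in cKO 2, and 41 of 42 genes were lower in each. Of all tested genes 49.05% were lower in cKO 1 and 53.6% in cKO 2. These are single libraries, and no test was made of this difference.

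Levels of 27 of the 42 genes differed between the library sets with genotype in the model, 7 higher in set A and 20 higher in set B, beside 31.2% and 32.5% of all tested genes. The genes higher in set A were Cdc20, Cenpa, Aurkb, Foxm1, Ccnb1, Ube2c and Spc25, and those with the widest gap toward set B were Kif20b, Cenpe, Cenpf, Prc1, Incenp and Mki67. Across the 42 genes the set difference ran with merged exon length (Spearman's rho -0.58, longer genes lower in set A), while the genotype difference showed a rho of -0.13 with length and 0.14 with the set difference. These values describe 42 genes measured in the same 6 libraries, which are not independent replicates.

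Of 118 further mitotic genes, all tested, 77 fell, 0 rose and 41 did not pass, against 5.63% of all tested genes that fell. The median log2 fold change was -0.49, with 115 negative estimates, beside 8369 of the 16691 tested genes. Without library set as a term 0 of the 118 passed, with 36 lower at an unadjusted p under 0.05 in edgeR (2.76% of all tested genes). With sex as a further term 4 fell (0.377% of all tested genes). The count was 11 without control 2 (0.991% of all tested genes), 8 without cKO 3 (0.78%) and 46 without control 3 (452 of 17214 tested genes). Of 26 further kinetochore genes 18 fell, with the smallest p for Pmf1, of the MIS12 complex, at 85.1, 30.5 and 33.9 CPM in the controls against 47.3, 46.4 and 20.4 CPM in the cKO libraries (log2 fold change -0.77, SE 0.09, adjusted p = 0.00177), and Cenpk, of the inner kinetochore, at 21.6, 66.6 and 65.6 CPM in the controls against 13.7, 15.3 and 42.9 CPM in the cKO libraries (log2 fold change -0.60, SE 0.09, adjusted p = 0.00478); the highest estimate was that of Zwint, a kinetochore protein also abundant in neurons, at 372, 364 and 434 CPM in the controls against 398, 389 and 412 CPM in the cKO libraries (0.06, adjusted p = 0.717). All 12 further kinesin and cytokinesis genes fell, with Ckap2l (log2 fold change -0.65, SE 0.10, adjusted p = 0.0057) and Kifc1, a minus-end motor (log2 fold change -0.51, SE 0.08, adjusted p = 0.00596), of smallest p and Ckap2 the shallowest (log2 fold change -0.44, SE 0.09, adjusted p = 0.0148). Of 23 spindle and centrosome genes 15 fell, with Dlgap5, a spindle assembly protein (log2 fold change -0.62, SE 0.09, adjusted p = 0.00328), and Spag5, astrin (log2 fold change -0.58, SE 0.09, adjusted p = 0.00484), of smallest p, and with Haus2 at the upper end (log2 fold change -0.02, SE 0.11, adjusted p = 0.925). Of 19 further mitotic regulators 15 fell; Psrc1, a spindle protein (log2 fold change -0.98, SE 0.11, adjusted p = 0.00143), fell more than any of the 42, Pkmyt1, a kinase that restrains Cdk1, also fell (log2 fold change -0.79, SE 0.10, adjusted p = 0.00241), and Lin37 was at the upper end (log2 fold change -0.01, SE 0.12, adjusted p = 0.955).

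Of 19 further genes of the checkpoint and the anaphase-promoting complex 6 fell, with a median of -0.17, beside 5.63% of all tested genes that fell. Fbxo5, the interphase inhibitor of the complex, fell (log2 fold change -0.56, SE 0.08, adjusted p = 0.0033), as did Espl1, separase (log2 fold change -0.67, SE 0.12, adjusted p = 0.00955), while Anapc4, a core subunit, had the highest estimate (log2 fold change 0.17, SE 0.10, adjusted p = 0.304). Of 12 core subunits of the complex on this list, Anapc11 alone fell and the log2 fold changes ran from -0.30 to 0.17. This grouping was made after the values were seen, and the list may not hold every subunit. Of 19 condensin and cohesin genes 11 fell, with Cdca5, sororin (log2 fold change -0.68, SE 0.10, adjusted p = 0.00385), and Ncapg (log2 fold change -0.60, SE 0.09, adjusted p = 0.00485) of smallest p and Pds5b at the upper end (log2 fold change -0.24, SE 0.09, adjusted p = 0.12). Split after the values were seen, 8 of 8 condensin subunits fell (median -0.56), and of 8 genes of the cohesin ring and its regulators Smc1a alone fell (median -0.32). A p that misses the threshold does not show that the others were unchanged.

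DNA replication genes moved in the same direction. Of 31 genes 30 fell and 0 rose, against 5.63% of all tested genes that fell and 6.36% that rose. The median log2 fold change was -0.65 beside -0.55 for the mitosis genes, and no test was made between the lists. With genotype alone 0 of the 31 passed in edgeR, with 16 lower at an unadjusted p under 0.05 (2.76% of all tested genes). With sex as a further term 2 fell (0.377% of all tested genes). The count was 6 without control 2 (0.991% of all tested genes) and 8 without cKO 3 (0.78%). Mcm5, of the replicative helicase, was at 249, 185 and 164 CPM in the controls against 139, 151 and 102 CPM in the cKO libraries (log2 fold change -0.78, SE 0.08, adjusted p = 0.0012), and Pcna, the sliding clamp, at 341, 339.7 and 335 CPM in the controls against 209, 223 and 211 CPM in the cKO libraries (log2 fold change -0.67, SE 0.08, adjusted p = 0.00143). The 1 gene that did not pass was Rfc3, a clamp loader subunit (log2 fold change -0.24, SE 0.09, adjusted p = 0.129). The Pcna controls lay close together across both library sets, and all 3 cKO libraries lay below them.

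**Figure D4:**
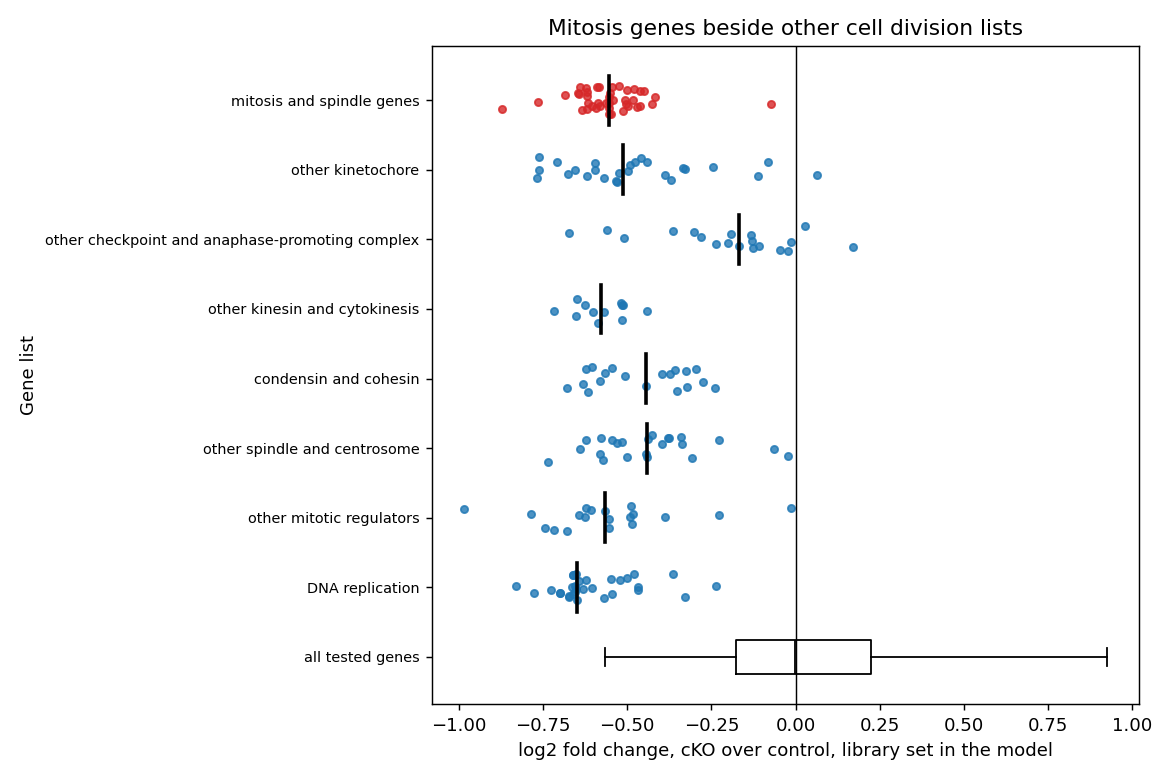
Log2 fold change (cKO over control, library set in the model) of each gene in the mitosis group (red), in 7 other lists of division genes (blue; vertical bars are medians) and of all tested genes (box from the first to the third quartile, line at the median, whiskers from the 5th to the 95th percentile). The mitosis genes have a median of -0.55 and the replication genes of -0.65, whereas the checkpoint and anaphase-promoting complex list spreads around -0.17 and all tested genes around 0.00.

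Cell type markers show what else moved with genotype in these retinas. All 7 retinal progenitor markers summed here fell (Rax, Six6, Sox2, Hes1, Fgf15, Dapl1 and Ccnd1), by a median of 0.82 on the log2 scale. Of 4 neurogenic progenitor markers Olig2 and Dll1 fell (243 to 288 CPM in controls against 170.0 to 218 CPM in cKO, summed over the 4), and of 9 ganglion cell markers 8 rose, all but Thy1 (1259 to 1482 CPM against 1843 to 2332 CPM). Of 6 photoreceptor precursor markers Otx2 and Prdm1 fell (1002 to 1242 CPM against 888 to 991 CPM). Lens markers were near absent in controls (2.60 to 6.12 CPM in sum, with Lim2 and Foxe3 at 0 reads) and abundant in cKO (836 to 2251 CPM), and all 9 of 11 that could be tested rose. All 6 microglia markers rose (20.2 to 36.8 CPM against 58.3 to 81.0 CPM), as did the endothelial genes Pecam1, Cdh5, Tie1 and Tek, while Kdr fell (538 to 700 CPM against 275 to 478 CPM in sum over 7 genes, of which Kdr is also expressed by retinal progenitors). Of the 4 tested erythroid markers Hbb-bt and Hba-a1 rose (0.598 to 12.4 CPM against 18.7 to 22.4 CPM), and 0 of 4 astrocyte and 0 of 4 tested pigment epithelium markers passed in edgeR (59.9 to 79.5 against 65.8 to 73.4 CPM, and 3.77 to 11.9 against 8.10 to 25.6 CPM). These calls are from the fit with library set, in which 5.63% of all tested genes fell and 6.36% rose. With genotype alone 0 of the 7 progenitor markers fell and 0 ganglion cell, 0 microglia and 0 endothelial markers rose in edgeR, while 6 lens markers did. With sex as a further term 3 progenitor markers fell, and 1 ganglion cell, 1 microglia, 1 endothelial, 1 erythroid and 9 lens markers rose. Without cKO 3 all 7 progenitor markers fell, and 2 ganglion cell, 3 microglia, 0 endothelial and 0 erythroid markers rose. Without control 2 the progenitor count was 5 and the ganglion cell count 5. The 2 neurogenic, the 2 photoreceptor precursor and the 1 endothelial call of lower level were at 0 with genotype alone and with sex as a further term. No marker was at 0 in all 6 libraries. The part of each cell type in the fall of the mitosis genes was not tested.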

How the data were processed

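Bulk RNA-seq of P0.5 mouse retina was analysed in 3 control and 3 cKO libraries, grouped by title and genotype label. The authors deposited raw counts, as whole numbers for each Ensembl identifier. The submitters' processing notes name STAR and HTSeq, with edgeR and GRCm38, but give no versions. Whether counting used strand was not given in the sources used here. Rows that name no gene (26.4 to 28.8% of counts) stayed out of library sizes and tests. Symbols and positions came from GENCODE on GRCm38, which matched 96.2% of identifiers; promoters are from RefSeq.

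Genes were filtered with filterByExpr, scaled by TMM and tested with edgeR 4.0.16 (quasi-likelihood, R 4.3.3) with library set and genotype as terms, Benjamini-Hochberg adjusted over 16691 genes at 0.05. SEs were derived from the fold change and its F statistic. The scripts were tested on simulated data. CPM were computed on TMM-scaled library sizes, and per-length levels divide them by merged exon length. Alternatives were genotype alone, sex as a term, RLE or no scaling, no filter or a mean CPM of at least 1, library sizes without mitochondrial or crystallin genes, a replicate block, DESeq2 1.42.0, limma-voom (limma 3.58.1), thresholds of 0.01 and 0.1, and leaving out each library. Ratios of single libraries within a set were added after the data were seen.

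The members and lists were chosen with earlier results of these data known. By the rule for named genes, all 42 were named; of each other list, up to 2 genes of smallest adjusted p in each direction and the one of highest fold change; of markers, those past the threshold. Pathway examples and marker names outside that rule (the subset splits, Thy1 and markers at 0 in controls) were chosen after their values were seen. Replicates of a group differed by more than sampling noise. Protein sequences were not analysed here, and some marker genes are not reported here.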

Additional observations from a re-analysis of the deposited data

How the results depend on the processing

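Of 714 log2 fold changes of the 42 genes over 17 alternatives 711 were negative. The alternatives refit the same 6 libraries or part of them, so these values are not independent. Over all tested genes, the fit with library set gave 8369 negative estimates of 16691. The 3 values of the 714 that were not negative were all of Pttg1. They were 0.11 with genotype alone, 0.0057 without control 4 and 0.35 without cKO 3 (-0.49 to 0.35 over the libraries left out). The count of mitosis genes that fell was 39, and 38 to 41 with RLE or no scaling, without a filter, with a mean CPM of at least 1, with library sizes without mitochondrial or crystallin genes, with DESeq2 and with limma-voom. With genotype alone it was 0 (0 lower and 36 higher among all tested genes), with sex as a further term 0 (63 lower, 173 higher), and at a threshold of 0.01 it was 18 (281 lower, 379 higher). Lower genes over the whole table numbered 1592 without a filter, 1672 with DESeq2 and 1425 at a threshold of 0.1. Leaving out each library in turn gave 4 to 41 mitosis genes, 134 to 1336 lower genes and 176 to 1371 higher genes. There were 4 mitosis genes without control 2, 6 without cKO 3 and 28 without control 3 (452 lower and 545 higher over all genes). With genotype alone, leaving out each library gave 0 mitosis genes, 0 to 3 lower genes and 0 to 34 higher genes. Where a set holds 1 library of a genotype, leaving that library out reduces the comparison to the other set. The cause of the other changes was not tested. Replicate numbers 2 and 3 occur in both groups, and their libraries deviated together (r = 0.77 and 0.674), but number 2 is in set A and number 3 in set B in both groups and the labels do not say that numbers pair samples. With a replicate block in place of library set 41 mitosis genes fell (1033 lower and 1007 higher over all genes). In that fit the genotype difference rests on numbers 2 and 3 alone, since cKO 1 and control 4 have no partner of their number. It leaves 1 residual degree of freedom, against 3 with library set and 2 with sex as a further term. Each member had at least 601 reads in every library; how depth limits these values was not tested.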

Other observations

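The 8 augmin subunits, which seed new microtubules on those already in the spindle, gave 2 genes that fell, Haus1 and Haus4, with a median log2 fold change of -0.34. Of 4 listed genes of the MuvB core, which binds the cell cycle homology region, Lin9 alone fell, with a median of -0.35. The others listed were Lin37, Lin52 and Lin54, and the list may not hold the whole core. Both groupings were made after the values were seen, and 5.63% of all tested genes fell in the same fit. Of the 25 DNA replication genes with a promoter window, CCAAT was present in 17 and TTTGAA or TTCGAA in 4. The shares among tested genes with a window were 39.8% and 14.2%.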
